A study of Homo sapiens with 12 samples.

Results

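The 43 genes described here encode the machinery that copies DNA and the switch that takes a cell from G1 into S phase. They were chosen by gene name from their known roles, with earlier results of these data known. They are 43 of the 58735 genes in the count table. All 43 kept enough reads to be tested in each of 5 comparisons. They fall into 9 role groups: the MCM helicase (6 genes), origin licensing (4), helicase activation (6), the sliding clamp and its loader (6), the polymerases and primase (8), the RPA complex (3), Okazaki fragment processing (2), nucleotide supply (4), and the E2F factors with cyclin E (4).

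The cells were HLE-B3, an immortalized epithelial line from the human lens. In the first group, WT cells were untreated and collected at 0 h, and in the second, WT cells had received 200 μM H2O2 for 12 h. In the other two groups, Atg7KO cells of the same line, in which CRISPR/Cas9 had been directed at the autophagy gene ATG7, were untreated at 0 h or had received 200 μM H2O2 for 12 h. Each group had 3 libraries. All groups were grown in the same serum-containing medium. The knockout cells had been selected with puromycin and picked as clones, and the labels do not say which clone or how many clones were sequenced. Differences between the lines due to loss of ATG7 therefore cannot be told apart from those due to clone or selection. Untreated cells were collected at 0 h, so the effect of H2O2 and that of the time in culture cannot be told apart. A whole culture was sequenced, so fewer cells in S phase and less RNA per cell cannot be told apart either. The paper measured cell cycle phases separately by flow cytometry. It reports that loss of ATG7 did not alter them under H2O2.

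As background, replication starts when the origin recognition complex, CDC6 and CDT1 load the MCM helicase onto DNA in G1. CDC45 and the GINS complex then activate the helicase, RPA covers the unwound strands, and polymerase alpha with primase starts each strand before the delta and epsilon polymerases extend it, held on DNA by the PCNA clamp. Many of these genes are transcribed by E2F factors, which are released from RB proteins when cyclin-dependent kinases such as CDK2 with cyclin E are active. PCNA is also a well-known target of p53 and serves in DNA repair. The adult lens epithelium divides slowly, whereas HLE-B3 cells divide in culture.

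The promoter letters of 4 members are shown because these genes moved in opposite directions with H2O2 in WT cells, PCNA and CDT1 upward and POLA1 and POLD1 downward. Each line gives the 150 bases before the RefSeq transcription start (GRCh38.p14), 5′ to 3′ on the strand of the gene. The windows are chr20:5126623-5126772 on the minus strand for PCNA, chr16:88803639-88803788 on the plus strand for CDT1, chrX:24693768-24693917 on the plus strand for POLA1 and chr19:50384173-50384322 on the plus strand for POLD1. Capitals mark matches to E2F-like letters.
PCNA: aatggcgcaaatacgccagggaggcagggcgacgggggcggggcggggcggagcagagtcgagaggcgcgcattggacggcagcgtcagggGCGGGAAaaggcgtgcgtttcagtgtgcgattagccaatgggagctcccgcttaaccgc
CDT1: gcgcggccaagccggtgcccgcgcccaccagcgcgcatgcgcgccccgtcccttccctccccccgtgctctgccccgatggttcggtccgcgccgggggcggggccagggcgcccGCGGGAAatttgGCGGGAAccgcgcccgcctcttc
POLA1: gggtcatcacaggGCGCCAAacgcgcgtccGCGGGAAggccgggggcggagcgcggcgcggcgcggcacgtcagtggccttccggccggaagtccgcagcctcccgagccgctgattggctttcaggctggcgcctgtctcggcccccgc
POLD1: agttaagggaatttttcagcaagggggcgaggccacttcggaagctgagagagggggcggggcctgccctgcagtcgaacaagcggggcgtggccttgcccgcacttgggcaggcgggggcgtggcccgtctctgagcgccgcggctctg
Searched as E2F-like on both strands were TTCCCGC, the variant TTCGCGC, the variant TTGCCGC and the variant TTGGCGC. A match on the other strand, such as GCGGGAA, is marked as well. The matches were 1 for PCNA, 2 for CDT1, 2 for POLA1 and 0 for POLD1. Thus genes that rose and genes that fell carried these letters. The same search over 250 bases before to 50 bases after the start found a match in 27 of the 36 members that had a promoter in the table (75.0%), against 13.1% of all 27305 promoters. The share was 73.3% of 15 members that rose in WT cells with H2O2, 80.0% of 10 that fell and 72.7% of 11 that did not pass the test. The CCAAT box was found in 55.6% of the members and in 35.7% of all promoters, and TTTGAA or TTCGAA (letters like the cell cycle homology region) in 5.56% and 16.6%. Such matches describe letters in a window and do not show binding. Of the members, 9 share over 10% of their exon bases with other genes (TYMS, CCNE2, POLA2, MCM2, GINS4, PRIM1, RRM2, GINS3 and RFC5), where reads of overlapping genes may not be told apart.

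Library totals ran from 15602183 to 17659496 reads on genes. ATG7 itself was not lower in the knockout: it stood at 2.81, 2.64 and 2.21 FPKM (fragments scaled by gene length and by library size) in untreated WT cells and at 3.78, 3.42 and 3.43 in untreated cells labelled Atg7KO. A small CRISPR deletion can leave mRNA in place, so these counts cannot check the knockout labels. The paper reports that the picked clones were checked for the deletion by western blotting. Untreated Atg7KO replicate 1 stood apart from the other libraries. Its mean correlation with its group was 0.974, against 0.983 for the other two libraries of that group and 0.991 in every other group. Its deviation from these 2 libraries fell with gene length (Spearman's rho -0.56 over the 43 members and over 12084 genes), with a median of 0.36 on the log2 scale for the 13 members under 3000 bases and -0.07 for the 15 over 5000 bases. Genes are not independent replicates, and these values are a description. Counts that rest on it are therefore given with and without it. Of 13 lens markers, PAX6, SIX3 and CDH2 (N-cadherin) were above 1 FPKM on average in untreated WT cells, and FOXE3 and the lens crystallin CRYAA did not exceed 0.0893 and 0.0357 in any library. Of 7 fibroblast markers, 4 were above 1 FPKM in untreated WT cells, led by COL1A1 at 619, 645 and 612. The list summed to between 649.5 and 682.0 FPKM in untreated and to between 291.7 and 308.7 in treated WT cells, and to between 385.1 and 535.2 and between 261.7 and 271.4 in the same 2 groups of Atg7KO cells, where LUM was expressed as well. Their part in the results was not tested. Of 6 epithelial markers, KRT8, KRT18 and KRT19 were above 1 FPKM in all 4 groups. That list summed to between 115.7 and 132.8 FPKM in untreated and to between 114.8 and 118.6 in treated WT cells, and to between 121.4 and 172.9 and between 88.52 and 91.99 in the same 2 groups of Atg7KO cells. All 3 were lower in treated Atg7KO than in treated WT cells, with a median log2 fold change of -0.58, and the part of this in the results was not tested. The leukocyte and endothelial lists did not sum above 2.22 and 0.842 FPKM in any library.

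Levels of the 43 genes spanned a wide range. In untreated WT cells PCNA was the highest at 171 ± 9.72 FPKM (SD, n = 3), followed by MCM7 at 79.6 ± 2.02 and MCM3 at 67.2 ± 0.993. At the low end POLA2 stood at 3.01 ± 0.196 FPKM, E2F2 at 3.04 ± 0.243 and GINS3 at 4.29 ± 0.0664, and the first 2 of these did not differ beyond their spread. Summed over the 43 genes, the level was 1096 ± 24.9 FPKM in untreated WT cells and 1541 ± 14.6 with H2O2, and 1220 ± 185 and 1518 ± 15.2 in Atg7KO cells. Without PCNA the WT sums were 925.4 ± 15.3 and 1007 ± 13.3 FPKM, and the Atg7KO sums 1001 ± 113 and 977.5 ± 7.26. PCNA thus made up most of the rise of the summed level with H2O2.

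**Figure D1:**
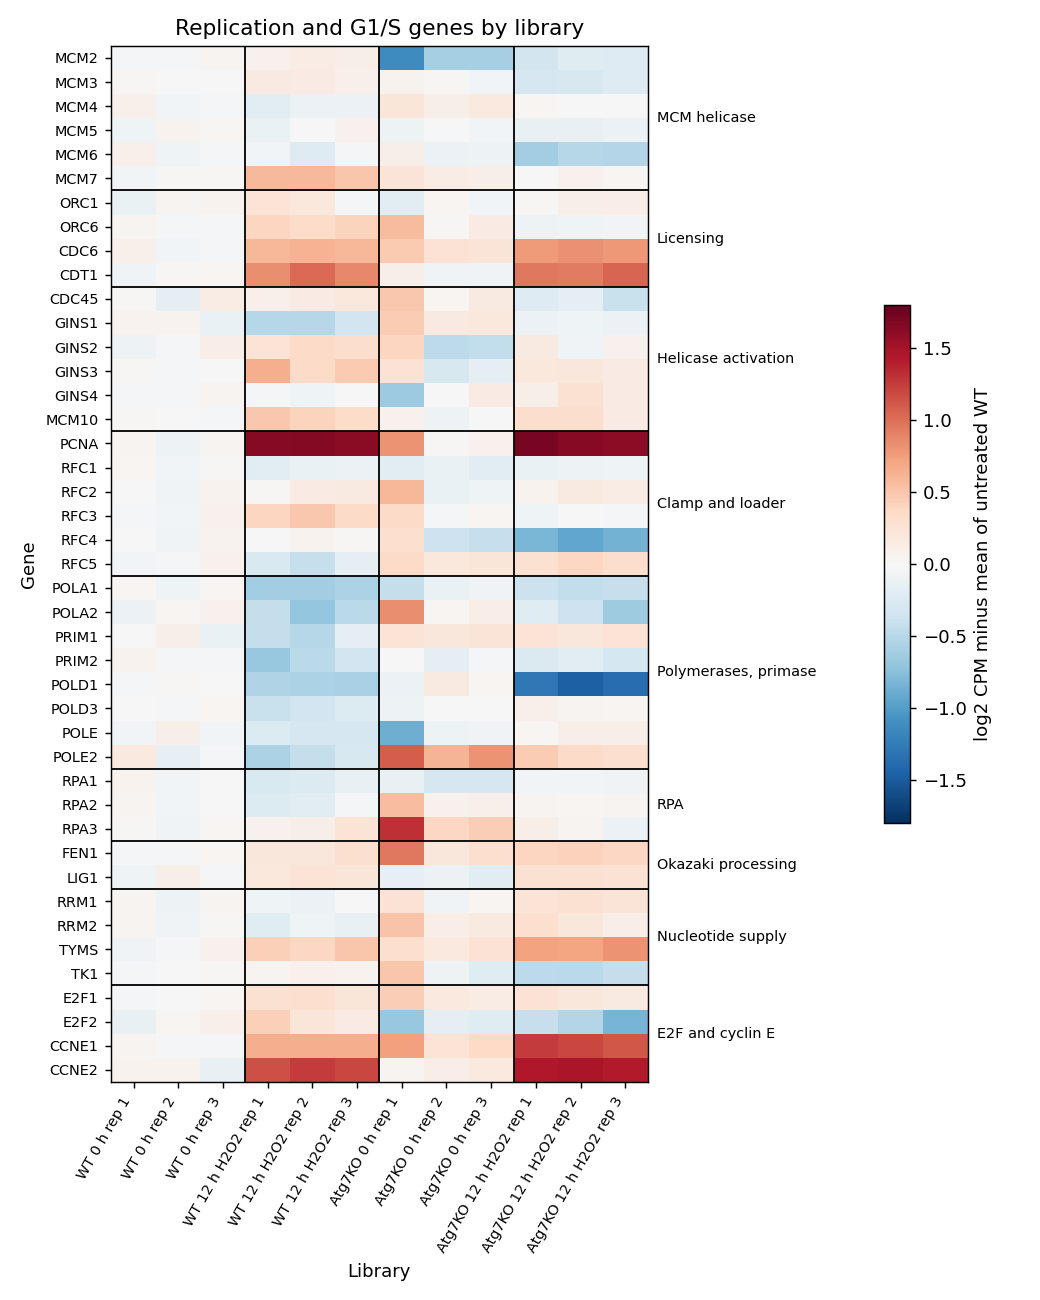
Each cell gives the log2 CPM (counts scaled to library size) of a gene (rows, grouped by role) in a library (columns, grouped by line and treatment) minus its mean in untreated WT cells. PCNA, CDT1 and CCNE2 are red in all 6 treated libraries, the polymerase and primase genes are blue in treated WT cells, and untreated Atg7KO replicate 1 differs from its neighbours for genes such as RPA3, POLE and FEN1.

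The comparison of treated with untreated WT cells asks how these genes responded to oxidative stress when autophagy was intact. Replication genes did not move as a block. A total of 16 members rose and 12 fell at an adjusted p under 0.01 by edgeR's quasi-likelihood test, against 30.9% of all 15913 genes tested that rose and 30.1% that fell. As shares these were 37.2% and 27.9% of the 43 members, close to the background. The median log2 fold change of the members was 0.11, and that of all genes -0.01. Only PCNA and CCNE2 passed a further limit of 2-fold upward and 0 members passed it downward, against 7.3% and 5.24% of all genes. By role group, all 8 polymerase and primase genes fell, 3 of 4 licensing genes rose, and the E2F and cyclin E genes gave 3 that rose and 0 that fell.

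**Figure D2:**
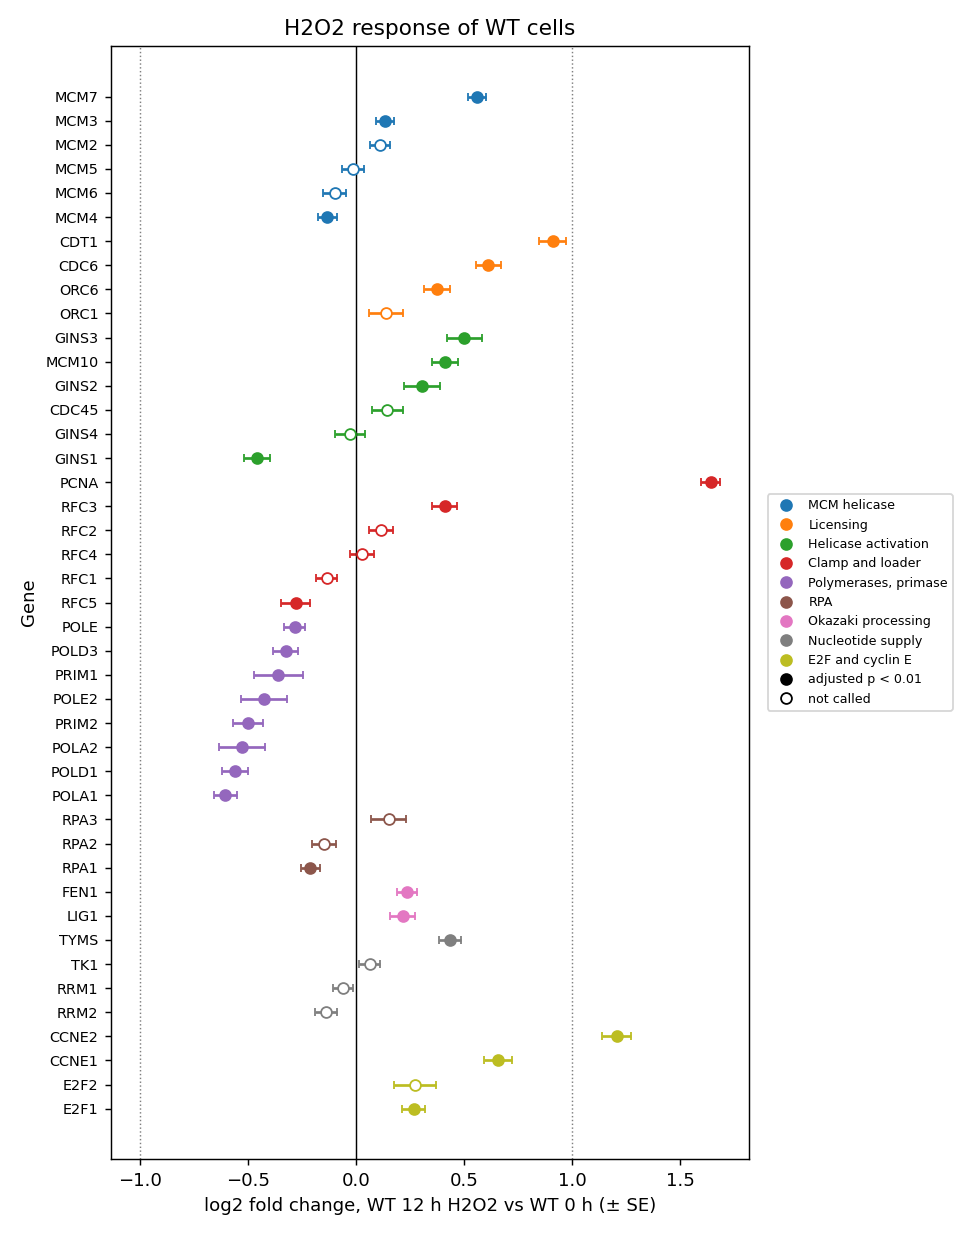
Points give the log2 fold change of each member in WT cells with H2O2 over untreated WT cells, with bars of 1 SE, coloured by role group, and filled where the adjusted p was under 0.01. PCNA and CCNE2 lie beyond the dotted line of 2-fold at 1, and all 8 polymerase and primase genes lie between -0.61 and -0.28.

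Of the 4 licensing members, 3 rose in WT cells. CDT1, which brings the MCM helicase to origins, stood at 11.3, 12.0 and 12.2 FPKM without and at 21.2, 24.3 and 21.6 FPKM with H2O2. The groups were well apart, with a 1.88-fold rise (log2 0.91 ± 0.06 SE, adjusted p = 6.931e-18). In Atg7KO cells CDT1 went from 12.8, 11.3 and 11.3 to 22.9, 22.9 and 24.8 FPKM. This was a 1.99-fold rise (0.99 ± 0.09, adjusted p = 2.57e-04), and the difference between the lines' responses was 0.08 ± 0.11 (adjusted p = 0.617). CDC6, its partner in loading, rose 1.53-fold in WT and 1.38-fold in Atg7KO cells. ORC1, the largest subunit of the origin recognition complex, overlapped between the WT groups, at 8.42, 9.45 and 9.56 FPKM without and 10.8, 10.5 and 8.95 with H2O2 (0.14 ± 0.08, adjusted p = 0.119). ORC6, another subunit, was the member of this group on which the lines differed. It went from 10.7, 10.1 and 10.2 to 13.5, 13.0 and 13.6 FPKM in WT cells, and from 15.4, 10.6 and 11.4 to 9.69, 9.82 and 10.1 in Atg7KO cells. Every treated library was above the untreated ones in WT cells and below them in Atg7KO cells. The responses differed by -0.71 ± 0.16 (adjusted p = 0.00649), or by -0.53 ± 0.09 without untreated Atg7KO replicate 1.

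The 6 subunits of the MCM helicase, a ring with 1 copy of each, did not respond alike. MCM7 led in WT cells, from 77.3, 80.5 and 81.0 to 119, 121 and 113 FPKM, a 1.47-fold rise (0.56 ± 0.04, adjusted p = 2.331e-16). In Atg7KO cells it went from 94.4, 87.6 and 85.4 to 80.5, 84.7 and 82.1 FPKM. Treated libraries were all above the untreated ones in WT and all below them in Atg7KO cells, where the change did not pass the test (-0.12 ± 0.09, adjusted p = 0.324). The responses differed by -0.67 ± 0.10 (adjusted p = 4.37e-04). MCM3 differed as well, with a rise of 1.10-fold in WT cells, -0.29 ± 0.08 in Atg7KO cells and a difference of -0.42 ± 0.09 (adjusted p = 0.0043). With an offset for gene length neither the WT rise (0.11, adjusted p = 0.0191) nor the difference (-0.33, adjusted p = 0.0103) of MCM3 passed. MCM4 was the lowest of the group in WT cells, from 51.6, 46.9 and 47.6 to 42.9, 45.4 and 45.3 FPKM, a change of -0.13 ± 0.04 that passed the test (adjusted p = 0.0058) although small. It lost its call with the same offset (-0.01, adjusted p = 0.87). MCM2, MCM5 and MCM6 did not pass in WT cells, and MCM6 fell 1.44-fold in Atg7KO cells (adjusted p = 0.00411).

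Among the genes that activate the helicase, 3 rose in WT cells (GINS2, GINS3 and MCM10) and GINS1 fell. GINS3 went from 4.34, 4.22 and 4.32 to 6.80, 5.48 and 5.98 FPKM, all treated libraries above the untreated ones (1.42-fold, adjusted p = 6.679e-07). GINS1, of the same complex, went the other way, from 20.4, 20.4 and 18.0 to 13.7, 13.8 and 15.5 FPKM (1.37-fold lower, adjusted p = 5.104e-09). Subunits of the GINS complex thus moved in both directions, and GINS4 did not pass the test (-0.03 ± 0.07). CDC45, the helicase partner of GINS, overlapped between the WT groups, at 12.4, 10.9 and 13.4 against 13.1, 13.7 and 14.0 FPKM. In Atg7KO cells it stood at 17.1, 12.6 and 13.6 without and at 10.4, 10.9 and 9.32 FPKM with H2O2. The difference of the CDC45 responses did not pass the threshold (-0.64 ± 0.16, adjusted p = 0.0122) but did without untreated Atg7KO replicate 1 (-0.50 ± 0.11, adjusted p = 5.157e-05).

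PCNA, the clamp that holds polymerases on DNA, had the largest response of the 43 genes in WT cells. It stood at 176, 160 and 177 FPKM without and at 533, 541 and 530 with H2O2. The 3.12-fold rise (1.64 ± 0.04, adjusted p = 6.495e-34) left the groups far apart. In Atg7KO cells it went from 302, 174 and 180 to 560, 536 and 525 FPKM, and the high untreated value was that of replicate 1. The rise was 2.47-fold with all libraries (1.30 ± 0.22, adjusted p = 0.00316) and 3.03-fold without that replicate (1.60 ± 0.03). Treated libraries of the 2 lines overlapped (0.01 ± 0.03, adjusted p = 0.826), although with the offset for gene length treated Atg7KO cells were higher (0.19, adjusted p = 3.071e-06).

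The clamp loader RFC, made of 1 large and 4 small subunits, did not follow PCNA. RFC3 rose 1.33-fold in WT cells (adjusted p = 3.394e-08), RFC5 fell, and RFC1, RFC2 and RFC4 did not pass. RFC5 went from 14.3, 14.6 and 15.7 to 12.3, 11.2 and 13.2 FPKM in WT cells (1.22-fold lower, adjusted p = 2.464e-04), with no overlap. RFC4 did not change detectably in WT cells, at 25.2, 24.0 and 26.4 without and 25.1, 26.5 and 25.7 FPKM with H2O2 (0.03 ± 0.05, adjusted p = 0.671). In Atg7KO cells RFC4 went from 31.2, 19.4 and 18.8 to 14.2, 13.3 and 14.1 FPKM, each treated library below each untreated one. Its change of -0.74 ± 0.20 did not pass the threshold (adjusted p = 0.0207), nor did the difference between the lines (-0.77 ± 0.21, adjusted p = 0.0173). Both passed without untreated Atg7KO replicate 1, at -0.48 ± 0.06 and -0.49 ± 0.08. RFC3 responses differed between the lines by -0.56 ± 0.13 (adjusted p = 0.00806), with 23.2, 18.0 and 18.6 FPKM in untreated and 17.3, 18.4 and 18.1 in treated Atg7KO cells.

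All 8 members from the replicative polymerases and primase fell in WT cells, by between 1.22-fold and 1.52-fold, and no treated library of any of them reached its untreated ones. Such separation was common here: of the 43 members, 20 had all treated WT libraries above, 13 had all below and 10 overlapped. For the 81 other replication and G1/S genes tested, described below, these counts were 35, 37 and 9. The counts were not made over all genes, so separation of the libraries does not by itself set a member apart. The count of polymerase and primase genes that fell was 7 with an offset for gene length, 4 when all 12 libraries shared a fit, and between 6 and 8 when a library was left out. The accessory subunit genes POLD2, POLD4, POLE3 and POLE4 are not members and were listed with the other fork genes. Their mean FPKM in WT cells went from 46.7 to 49.3, from 0.741 to 1.21, from 54.9 to 80.6 and from 10.7 to 17.6. The fall thus did not extend to all subunits of the delta and epsilon polymerases. Over 12084 genes the WT response itself declined with gene length (Spearman's rho -0.257), and over the members rho was -0.278; these genes share libraries and are not independent replicates. POLA1, the catalytic subunit of polymerase alpha, fell most, from 17.1, 15.7 and 17.1 to 10.8, 10.8 and 11.3 FPKM (1.52-fold lower, adjusted p = 3.86e-14). In Atg7KO cells it went from 12.5, 15.4 and 15.9 to 12.8, 12.4 and 12.6 FPKM, and the groups overlapped (-0.22 ± 0.12, adjusted p = 0.169). Without untreated replicate 1 that fall passed the test (-0.33 ± 0.05, adjusted p = 1.831e-10).

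POLD1, the catalytic subunit of polymerase delta, fell in both lines and more in Atg7KO cells. It went from 12.2, 12.5 and 12.2 to 8.45, 8.36 and 8.19 FPKM in WT cells (1.48-fold lower, adjusted p = 1.571e-11), and from 11.5, 13.7 and 12.6 to 5.03, 4.47 and 4.75 in Atg7KO cells (2.66-fold lower, adjusted p = 1.14e-04). The untreated groups overlapped and the treated groups did not. With all libraries POLD1 was the only 1 of the 43 genes that fell more than 2-fold with H2O2, and the difference of its responses, -0.85 ± 0.11 (adjusted p = 3.19e-04), was -0.91 ± 0.09 without untreated Atg7KO replicate 1. POLD3, an accessory subunit of the same polymerase, differed in the other direction. It fell 1.25-fold in WT cells and gave 0.09 ± 0.08 in Atg7KO cells (adjusted p = 0.423), a difference of 0.42 ± 0.09 (adjusted p = 0.00662). POLE, the catalytic subunit of polymerase epsilon, had the smallest fall of the group, from 10.8, 12.0 and 10.8 to 9.41, 9.14 and 9.08 FPKM (1.22-fold lower, adjusted p = 1.017e-06). It is also the longest, at 16609 bases of annotated exon, and its value was 0.06 (adjusted p = 0.261) with the offset for gene length.

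**Figure D3:**
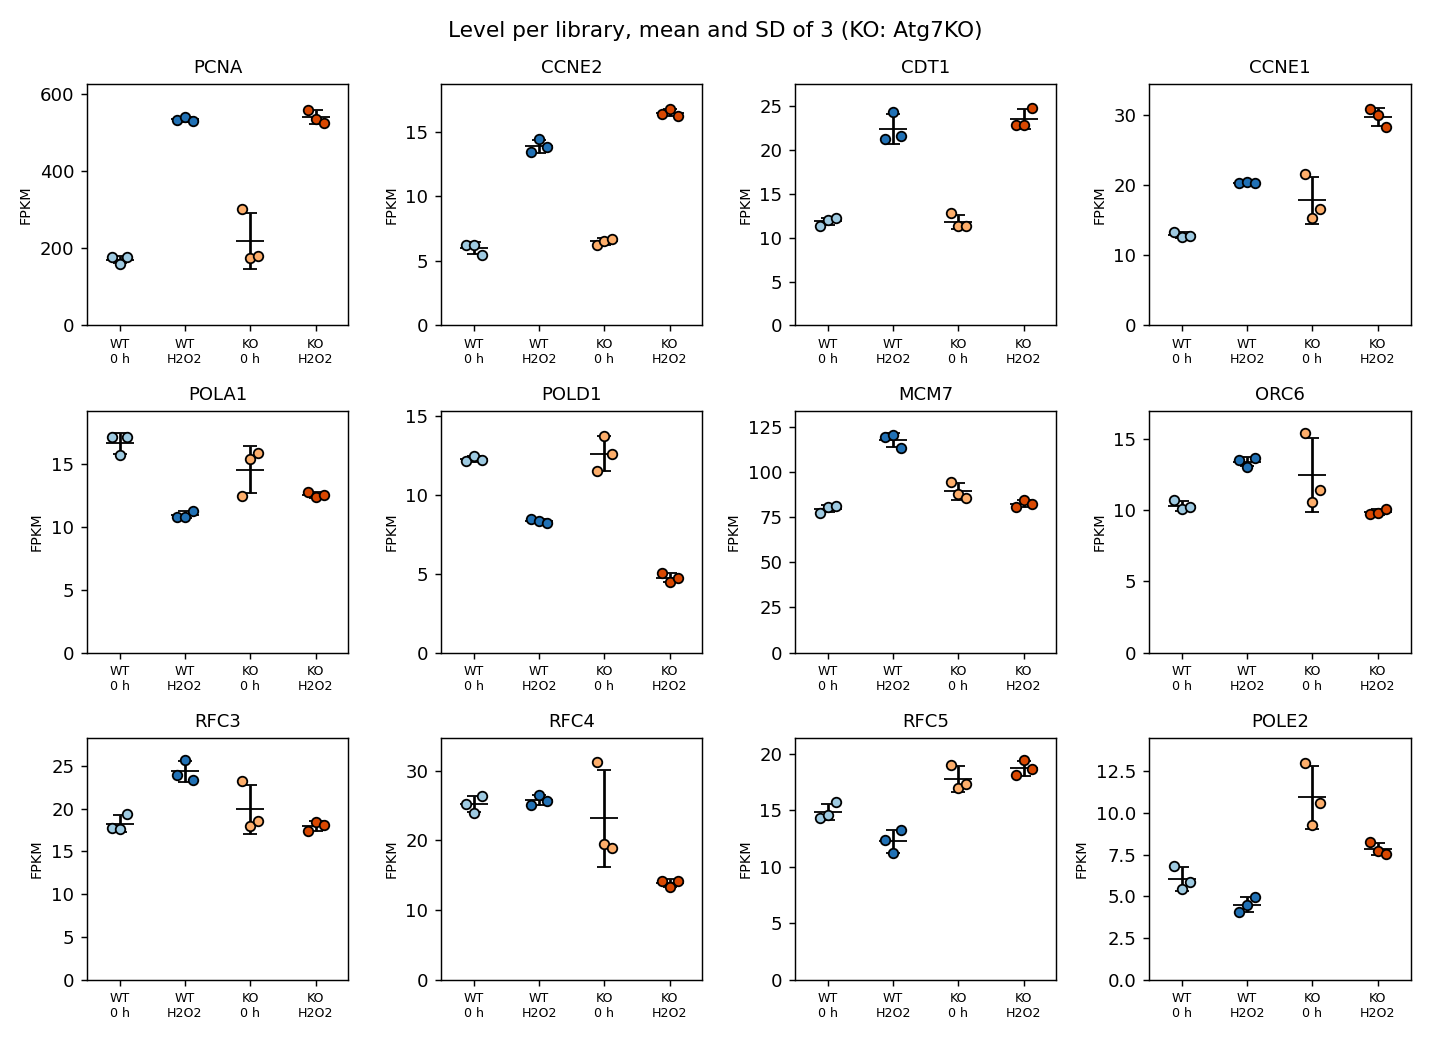
Points give the FPKM of 12 members in each library, with the mean and SD of the 3 libraries of a group as bars, and each panel has its own axis from 0. PCNA, CCNE2, CDT1 and CCNE1 are higher with H2O2 in both lines, whereas MCM7, ORC6 and RFC3 are higher with H2O2 in WT but not in Atg7KO cells and POLD1 is lowest in treated Atg7KO cells.

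RPA, the complex that covers single-stranded DNA, changed little in WT cells. RPA1 fell 1.16-fold, from 50.5, 46.6 and 48.1 to 40.3, 41.2 and 44.2 FPKM (adjusted p = 5.179e-05), with no overlap. RPA3 did not pass the test, at 7.85, 7.35 and 7.89 against 8.17, 8.36 and 9.16 FPKM (adjusted p = 0.0898). In Atg7KO cells RPA3 stood at 19.4, 10.0 and 10.4 without and at 8.28, 8.02 and 7.22 FPKM with H2O2, and the high value was again replicate 1. The difference of RPA3 responses was -0.91 ± 0.28 (adjusted p = 0.0287) and, without that replicate, -0.53 ± 0.11 (adjusted p = 5.976e-05).

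Both enzymes that finish Okazaki fragments rose slightly in WT cells. The flap endonuclease FEN1 went from 46.0, 45.5 and 47.7 to 53.7, 53.9 and 56.7 FPKM (1.18-fold, adjusted p = 2.988e-05), and DNA ligase LIG1 from 9.58, 10.9 and 9.87 to 11.5, 12.1 and 11.8 FPKM (1.16-fold, adjusted p = 8.307e-04). Treated libraries were above untreated ones for both. FEN1 lost its call with the offset for gene length (0.10, adjusted p = 0.0678). LIG1 rose in Atg7KO cells as well, 1.34-fold (adjusted p = 0.0057), while untreated FEN1 there ranged from 53.6 to 89.9 FPKM, with replicate 1 the highest.

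Of the nucleotide supply genes, only thymidylate synthase, TYMS, which makes dTMP, passed in WT cells. It rose from 34.8, 35.6 and 38.4 to 48.8, 47.4 and 51.4 FPKM (1.35-fold, adjusted p = 3.178e-10), and in Atg7KO cells from 44.8, 41.2 and 43.3 to 60.2, 59.9 and 64.2 (1.42-fold, adjusted p = 0.00299). TYMS shares 46.6% of its exon bases with overlapping genes, whose reads may not be told apart from its own. RRM2, the regulated subunit of ribonucleotide reductase, overlapped between the WT groups, at 21.2, 19.5 and 20.7 against 17.7, 19.5 and 18.8 FPKM. Thymidine kinase TK1, the salvage enzyme, stood at 57.4, 58.7 and 59.4 against 60.5, 62.1 and 61.2 FPKM in WT cells (adjusted p = 0.25). In Atg7KO cells it went from 83.4, 54.9 and 49.9 to 42.4, 42.1 and 43.6 FPKM, all treated libraries below the untreated ones, and neither that change (-0.56 ± 0.19, adjusted p = 0.0484) nor the difference of responses (-0.62 ± 0.20, adjusted p = 0.0343) passed. Without untreated replicate 1 the difference was -0.36 ± 0.07 (adjusted p = 1.233e-05).

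Cyclin E rose in both lines. CCNE2 went from 6.26, 6.24 and 5.47 to 13.4, 14.4 and 13.8 FPKM in WT cells (2.31-fold, adjusted p = 5.911e-21) and from 6.25, 6.53 and 6.72 to 16.4, 16.8 and 16.2 in Atg7KO cells (2.52-fold, adjusted p = 5.7e-05). CCNE2 shares 37.1% of its exon bases with other genes. CCNE1, the other cyclin E gene, rose from 13.4, 12.6 and 12.7 to 20.4, 20.4 and 20.3 FPKM in WT cells (1.58-fold, adjusted p = 1.251e-12) and from 21.6, 15.3 and 16.6 to 30.9, 30.0 and 28.3 in Atg7KO cells (1.66-fold, adjusted p = 0.00528). No treated library of either gene overlapped its untreated ones. The E2F factors moved less. E2F1 rose 1.20-fold in WT cells, from 29.5, 30.6 and 31.1 to 36.7, 37.9 and 35.4 FPKM (adjusted p = 1.796e-05), and lost its call with the offset for gene length (0.13, adjusted p = 0.0257). E2F2 stood at 2.78, 3.11 and 3.25 without and at 4.12, 3.57 and 3.38 with H2O2 (adjusted p = 0.0128) and passed with that offset (0.33, adjusted p = 0.00312). In Atg7KO cells E2F2 stood at 1.89, 2.69 and 2.61 and at 2.29, 2.12 and 1.71 FPKM, and the difference of responses did not pass (-0.51 ± 0.21, adjusted p = 0.0869). Without untreated Atg7KO replicate 1 it did (-0.65 ± 0.15, adjusted p = 2.502e-04), as did the fall of E2F2 in Atg7KO cells (-0.39 ± 0.12, adjusted p = 0.00162).

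In Atg7KO cells 7 members rose with H2O2 and 2 fell, against 13.6% and 12.4% of 15475 genes. The spread between replicates was far larger here than in WT cells, with a biological coefficient of variation of 0.161 against 0.047. Beyond 2-fold lay PCNA and CCNE2 upward and POLD1 downward, against 6.09% and 5.11% of all genes. Without untreated replicate 1 the counts were 16 and 13, against 29.8% and 28.6%, and with any other library of this comparison left out they were 2 and 1. The members' median was -0.05 and that of all genes -0.03, and without replicate 1 the members' median was 0.05. The polymerase and primase genes, of which all 8 fell in WT cells, gave 1 that fell (POLD1) with all libraries, and 4 that fell and 1 that rose (POLE) without replicate 1.

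Responses common to both lines were counted next. The 7 members that rose in Atg7KO cells, CDC6, CDT1, PCNA, LIG1, TYMS, CCNE1 and CCNE2, rose in WT cells too, and POLD1 fell in both. Of 14895 genes tested in both lines, 11.2% rose in both and 9.41% fell in both, against 16.3% and 2.33% of the members. The WT and Atg7KO responses were fitted on separate libraries. Without untreated Atg7KO replicate 1, 11 members rose and 6 fell in both lines, and MCM3, POLE and RPA1 passed the test in opposite directions. These were 25.6%, 14.0% and 6.98% of the members, against 20.2%, 19.5% and 4.41% of 15116 genes.

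**Figure D4:**
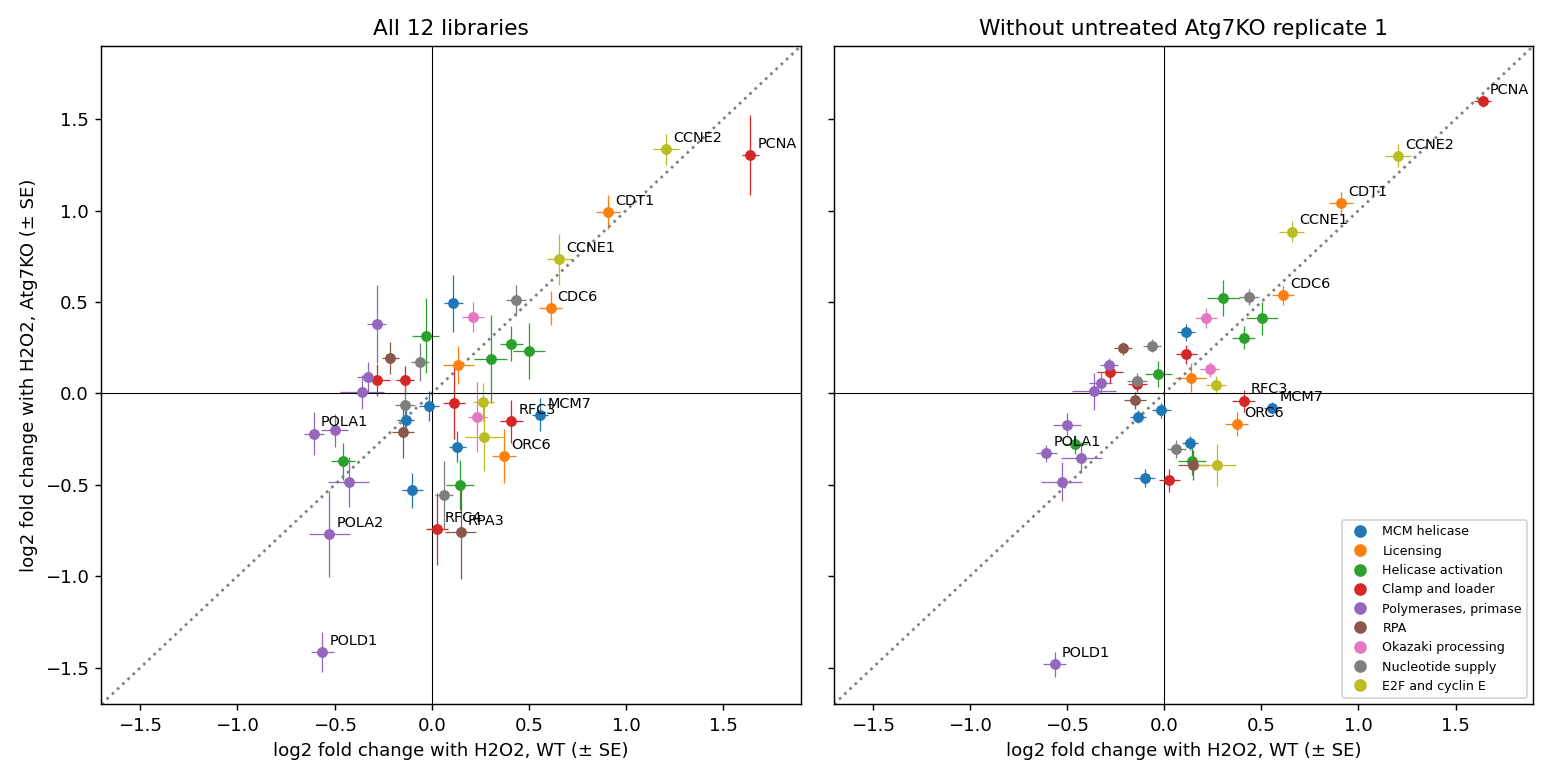
Each point is a member, with its log2 fold change with H2O2 in WT cells (x axis) and in Atg7KO cells (y axis) and bars of 1 SE, with all libraries on the left and without untreated Atg7KO replicate 1 on the right. PCNA, CCNE2, CDT1 and CCNE1 lie near the dotted line of equal response at the upper right, while MCM7, ORC6, RFC3 and POLD1 lie below it.

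Whether the Atg7KO cells responded differently from the WT cells was tested as an interaction over all 12 libraries. Among the members, 1 response was higher in Atg7KO than in WT cells (POLD3) and 5 were lower (MCM3, MCM7, ORC6, RFC3 and POLD1), against 7.02% and 7.01% of 16856 genes. No member's difference passed 2-fold, against 1.93% and 3.24% of all genes. Without untreated Atg7KO replicate 1, 10 were higher and 11 lower, against 17.8% and 16.3%, as shares 23.3% and 25.6% of the members. All 6 that passed with all libraries passed without it and in the same direction. Leaving out 1 of the other libraries gave 0 or 1 higher and 2 to 8 lower. It was 0 and 2 for each untreated WT library, treated WT replicates 1 and 2 and each treated Atg7KO library. MCM7 and POLD1 kept their calls in all 12 such fits, MCM3 and POLD3 in 4, and ORC6 and RFC3 in 3. With the offset for gene length MCM3 and RFC3 (-0.35, adjusted p = 0.0211) did not pass. RFC5 (0.51, adjusted p = 0.00277) and PRIM1 (0.63, adjusted p = 0.00837) passed as higher there, which gave 3 higher and 3 lower. In the fit without untreated Atg7KO replicate 1, 4 polymerase and primase genes (POLA1, PRIM2, POLD3 and POLE) had higher responses in Atg7KO cells and POLD1 a lower one, and 3 MCM genes (MCM3, MCM6 and MCM7) had lower responses and MCM2 a higher one.

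Under H2O2 the Atg7KO cells differed from WT cells in 32 of the 43 genes, of which 19 were higher and 13 lower, against 27.7% and 27.9% of 15909 genes. As shares these were 44.2% and 30.2% of the members. The spread between replicates was low here (biological coefficient of variation 0.0416), so small differences passed: 0 members differed by 2-fold, against 3.03% and 4.43% of all genes. The members' median was 0.05 and that of all genes 0.00. Without treated WT replicate 1 the count of higher members was 12. The role groups leaned different ways: 6 polymerase and primase genes were higher and 1 lower, 4 MCM genes were lower and 1 higher, and 3 nucleotide supply genes were higher and 1 lower. When all 12 libraries shared a fit, 3 polymerase and primase genes and 1 nucleotide supply gene were higher, and 3 MCM genes were lower. With the offset for gene length POLA1 (adjusted p = 0.0177) and POLE (adjusted p = 0.039) did not pass.

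**Figure D5:**
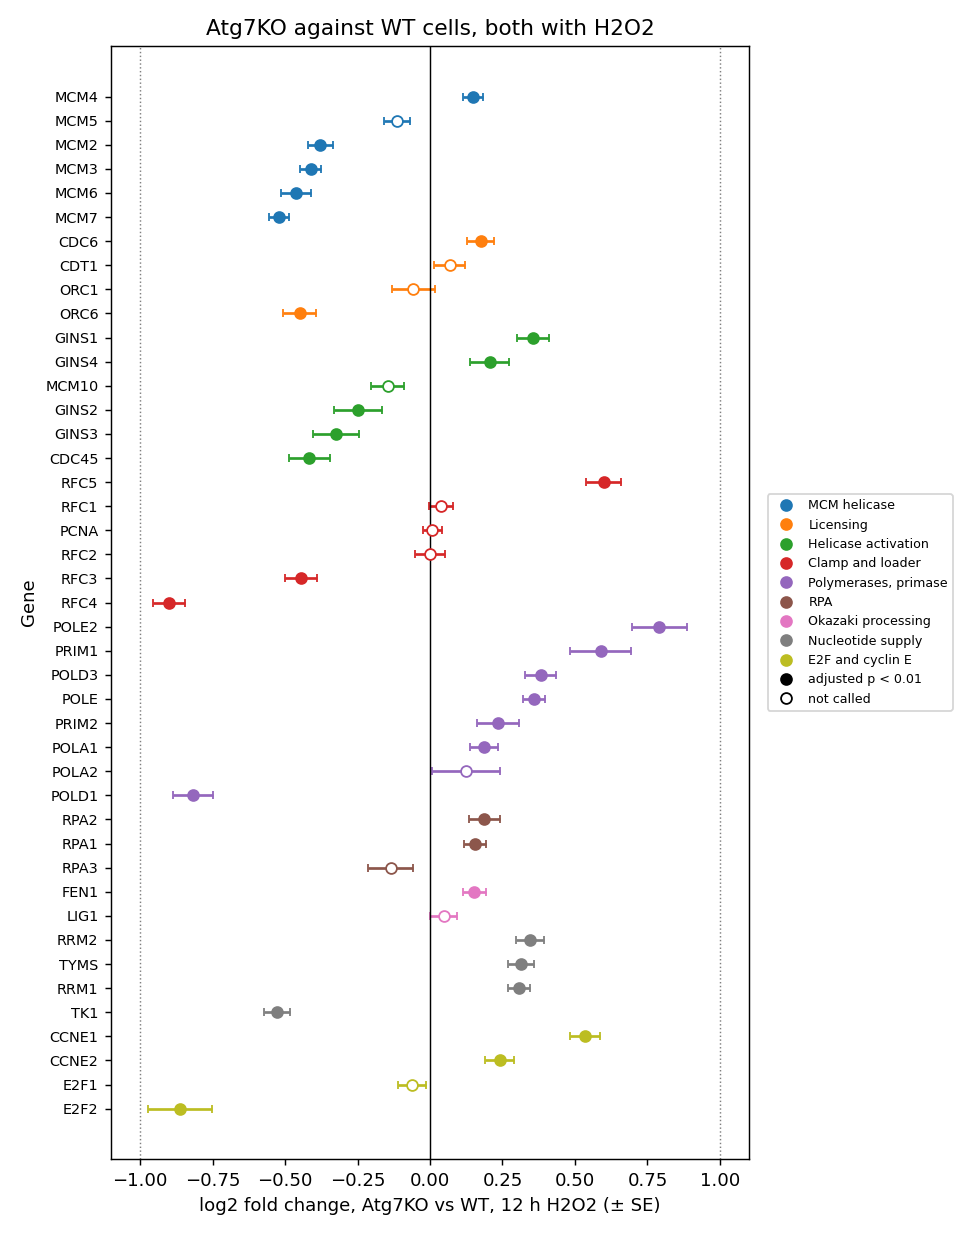
Points give the log2 fold change of each member in Atg7KO over WT cells, both with H2O2, with bars of 1 SE, coloured by role group, and filled where the adjusted p was under 0.01. Subunits of the same complex lie on both sides of 0: RFC5 at 0.60 and RFC4 at -0.90, POLE2 at 0.79 and POLD1 at -0.82.

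Several complexes had subunits called in both directions in this comparison, where 27.7% of all 15909 genes were higher and 27.9% lower. Whether complexes were split more often than other sets of genes was not tested. MCM7, MCM6, MCM3 and MCM2 were lower in treated Atg7KO than in treated WT cells by 1.43-, 1.38-, 1.33- and 1.30-fold, whereas MCM4 was 1.11-fold higher and MCM5 did not pass (-0.11 ± 0.05). GINS1 and GINS4 were higher by 1.28- and 1.15-fold, and GINS2 and GINS3 lower by 1.19- and 1.25-fold. The smaller of these differences depended on the fit. With the offset for gene length MCM4 (adjusted p = 0.0934), GINS2 (adjusted p = 0.0847) and GINS4 (adjusted p = 0.0137) did not pass and MCM5 did (-0.21, adjusted p = 1.606e-04), and when all 12 libraries shared a fit 0 of the activation genes were lower. In the clamp loader RFC4 was 1.87-fold lower (adjusted p = 1.72e-15) and RFC3 1.36-fold lower, and RFC5 was 1.52-fold higher (adjusted p = 4.505e-10). In polymerase delta POLD1 was 1.76-fold lower (adjusted p = 7.028e-12) and POLD3 1.30-fold higher. POLE2, an accessory subunit of polymerase epsilon, stood at 4.07, 4.48 and 4.96 FPKM in treated WT and at 8.26, 7.75 and 7.51 in treated Atg7KO cells, a 1.73-fold difference (adjusted p = 1.25e-08). PRIM1, the catalytic primase subunit, was 1.51-fold higher (adjusted p = 1.322e-05), and the smallest of the treated Atg7KO values, 7.04 FPKM, lay above the largest of WT, 5.42. E2F2 was 1.82-fold lower and TK1 1.44-fold lower, while RRM2, TYMS and RRM1 were between 1.24- and 1.27-fold higher.

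In untreated cells, 1 member was higher in Atg7KO than in WT cells and 0 were lower, against 4.42% and 3.28% of 15357 genes. At an unadjusted p under 0.05 there were 11 members, and DESeq2 called 1 lower. No member was called and past 2-fold in either direction, against 2.27% and 1.23% of the genes tested. The member called was POLE2, at 6.83, 5.43 and 5.87 FPKM in WT and 13.0, 9.25 and 10.6 in Atg7KO cells (1.81-fold, adjusted p = 0.00951). That call was lost when any library other than untreated Atg7KO replicate 1 was left out (adjusted p between 0.0123 and 0.0574) and with limma on either pseudocount (0.0142 and 0.0137). MCM2 was the farthest in the other direction, at 26.6, 26.5 and 28.3 against 12.5, 17.9 and 17.8 FPKM, with no overlap, and did not pass (-0.75 ± 0.15, adjusted p = 0.016). Without untreated Atg7KO replicate 1 the counts were 10 higher and 5 lower, against 18.2% and 17.9%, with POLE2 at 0.72 ± 0.09, MCM2 at -0.60 ± 0.05 and RFC4 at -0.39 ± 0.06. This comparison and the one under H2O2 use separate libraries.

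Some of the members that differed between the lines lie among neighbours that differed too. Within 2 Mb on either side of POLE2 on chromosome 14 (49643555 to 49688422, GRCh38), 29 other genes were tested under H2O2, of which 22 were higher in Atg7KO cells, with a median log2 fold change of 0.69 beside 0.79 for POLE2. Around MCM2 on chromosome 3 (127598223 to 127622436), 24 of 34 neighbours were lower, with a median of -0.54 beside -0.38 for MCM2. Around RFC4, farther along chromosome 3 (186789880 to 186807058), 14 of 22 were lower, with a median of -0.44 beside -0.90 for RFC4. For POLD1 on chromosome 19 (50384204 to 50418016), 36 of 96 were lower and 12 higher, and the median was -0.25. Of all 15909 genes tested under H2O2, 27.7% were higher and 27.9% lower in Atg7KO cells. The neighbours' medians did not lean with the gene for RFC3 (0.42, gene -0.45), E2F2 (0.17, gene -0.86) and PRIM1 (0.00, gene 0.59). Other members went either way. Those whose neighbours leaned with the gene included GINS2 (median -0.42, gene -0.25), TK1 (-0.22, gene -0.53) and GINS4 (0.34, gene 0.21). What these neighbourhoods contribute to the members' differences was not tested.

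A list of 82 other replication and G1/S genes in 6 groups was described in the same fits. In WT cells 30 rose and 36 fell of 81 tested, or 37.0% and 44.4%, against 30.9% and 30.1% of all genes, with a median of -0.05. Beyond 2-fold lay 8 and 9 of them, against 7.3% and 5.24% of all genes. Of 14 further origin genes 12 fell and 1 rose: DBF4B, an activator of the CDC7 kinase, fell most (-1.55) and GMNN, which encodes the CDT1 inhibitor geminin, rose (0.53). Thus CDT1 and its inhibitor rose together while most of these 14 further origin genes fell. They included further subunits of the origin recognition complex. Mean FPKM in WT cells went from 8.07 to 5.22 for ORC2, from 14.9 to 9.57 for ORC3 and from 8.74 to 7.27 for ORC5. For ORC4 it went from 2.94 to 3.32. Among the members, 3 of 6 activation genes rose and 1 fell, and 3 of 4 licensing genes rose and 0 fell. Of 18 fork genes 6 rose and 7 fell, from the topoisomerase TOP2A at -1.68, which went from 118, 108 and 114 to 34.7, 32.8 and 39.0 FPKM, to POLE4 at 0.71. TIMELESS, of the fork protection complex, fell by more than 2-fold (-1.07).

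Among inhibitors, cyclins and their regulators, 9 of 17 tested rose in WT cells and 5 fell. CDKN1A, which encodes the CDK inhibitor p21, went from 50.3, 49.9 and 48.3 to 1521, 1676 and 1453 FPKM (4.96) in WT cells, and from 51.1, 46.3 and 46.1 to 1713, 1694 and 1662 in Atg7KO cells (5.14). It was far higher in each treated library than in any untreated one. FBXW7 (2.32), which targets cyclin E for degradation, CDC25A (1.56), CCND1 (1.48), CCND3 (1.20) and CDKN2B (1.13) rose beyond 2-fold as well, and the S phase cyclin CCNA2 (-1.21) and CDKN1B (-1.02) fell. So the cyclin D and cyclin E genes named here rose while cyclin A fell.

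In the RB and E2F group 7 of 15 rose and 6 fell in WT cells. E2F7, a repressor of E2F targets, rose most (1.95), from 23.6, 22.5 and 22.5 to 88.7, 95.5 and 82.0 FPKM, and the pocket protein gene RBL2 fell most (-1.35). E2F5 (-1.18) and TFDP2 (-1.01) also fell beyond 2-fold. Of 7 nucleotide genes 4 rose and 2 fell. RRM2B, the p53-regulated subunit of ribonucleotide reductase, rose from 10.8, 10.4 and 11.4 to 37.0, 40.5 and 41.2 FPKM in WT cells and from 9.98, 10.0 and 10.9 to 71.7, 72.1 and 70.9 in Atg7KO cells, and the responses differed by 0.93. The deoxynucleotide hydrolase gene SAMHD1 was the lowest of these (-0.90). Of 10 checkpoint genes 3 rose and 4 fell, from the kinase gene ATR (-1.03) to DTL (0.85), whose product directs CDT1 to degradation.

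In Atg7KO cells 12 of the 80 other genes tested rose with H2O2 and 19 fell (15.0% and 23.8%, against 13.6% and 12.4% of all genes), with 7 and 7 beyond 2-fold. With untreated Atg7KO replicate 1 left out, 32 rose and 32 fell, against 29.8% and 28.6% of all genes, and the counts beyond 2-fold were again 7 and 7. The interaction was higher for 13 and lower for 7 of 81 (16% and 8.64%, against 7.02% and 7.01%), and for 23 and 18 without that library (against 17.8% and 16.3%). With all libraries POLE4 (-1.30) and CKS1B (-1.14), a cofactor of cyclin-dependent kinases, differed by more than 2-fold. Without that library both passed the test but not 2-fold (-0.87 and -0.83). Under H2O2, 26 were higher and 31 lower in Atg7KO than in WT cells (32.1% and 38.3%, against 27.7% and 27.9%). ASF1B, a histone chaperone, was lower by more than 2-fold (-1.27), and ETAA1, an activator of ATR, was higher by that margin (1.01). In untreated cells 1 was higher and 4 were lower (1.25% and 5.0%, against 4.42% and 3.28%), and without untreated Atg7KO replicate 1 these were 16 and 20 of 80 (against 18.2% and 17.9%).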

How the data were processed

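RNA of HLE-B3 cells was sequenced in 12 libraries, 4 groups of 3, grouped by genotype and treatment from the labels. The deposited counts are whole numbers of reads per gene, made by the authors without normalization, and the authors scaled them by gene length and library size into the deposited FPKM, with 1 further factor per library between 0.949 and 1.02. The submitters' processing notes name HISAT2 2.0.5 and featureCounts 1.5.0-p3. The strand setting and the handling of reads that map to several places are not given in the sources used here, and the NEBNext Ultra kit does not mark strand by itself, so overlapping and antisense genes can share reads. All sample columns were used (0 were left out), 0 library pairs held identical values, and 0 rows lacked a gene name.

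Counts were tested with edgeR 4.0.16 (limma 3.58.1, R 4.3.3) by its quasi-likelihood test, with TMM scaling, filterByExpr at a minimum count of 10 and Benjamini-Hochberg adjustment over all genes kept. Group comparisons were fitted on the 6 libraries concerned, as the study compared 2 groups at a time, and the difference of responses was an interaction over 12 libraries. A gene was called at an adjusted p under 0.01. A second rule, after the study's thresholds, also asked for a log2 fold change beyond 1 and a mean FPKM above 1 in a group. The script was tested on simulated data. Nothing in the labels says that the replicates were separate cultures or days, so p-values measure the spread between these libraries. With 15602183 to 17659496 reads per library, members with few reads were measured less precisely. In the WT comparison the SE ran from 0.0418 for MCM7 (at least 5910 reads) to 0.113 for PRIM1 (159 to 319 reads).

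The members and lists were chosen with earlier results of these data known. In each role group, values per library are given for the members with the highest and lowest WT response and the largest difference of responses, and of the other lists the extremes and the genes past the second rule are named. POLE2, PRIM1, RFC3, MCM2, CCNE1 and COL1A1 were given such values after they were seen. Promoter letters came from RefSeq tables (GRCh38.p14), where 36 of 43 members matched by symbol, and exon overlap from GENCODE 29 as a count of shared exon bases. The alternatives were DESeq2 1.42.0, scaling by RLE or by the upper quartile, a fit of all genes regardless of counts, a stricter minimum of 10 counts in every library, limma on log2(FPKM + 1) or log2(FPKM + 0.1), an offset for gene length (lowess, span 0.3), all 12 libraries in each fit, other thresholds, the replicate number as a block, and each library left out in turn. For the other replication genes the fits without untreated Atg7KO replicate 1 were added after seeing the data. Figures were drawn with matplotlib 3.10.9.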

Additional observations from a re-analysis of the deposited data

Results flagged for a closer look

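The H2O2 response of 6 members differed between Atg7KO and WT cells by the interaction test across all genes (edgeR, Benjamini-Hochberg adjustment), given here as log2 fold change in Atg7KO minus that in WT cells. The responses of MCM7 (-0.67), MCM3 (-0.42), ORC6 (-0.71) and RFC3 (-0.56) were lower in Atg7KO cells. With all libraries none of these 4 genes passed the test of its own response in Atg7KO cells, and all 4 rose in WT cells. The MCM3 rise in WT cells lost its call with the offset for gene length (0.11, adjusted p = 0.0191). POLD1 (-0.85) fell in both lines and more in Atg7KO cells. POLD3 (0.42) fell in WT cells, and its change in Atg7KO cells did not pass the test. Without untreated Atg7KO replicate 1, the library that stood apart from its group, all 6 differences passed. In that setting MCM3 also passed as a fall in Atg7KO cells (-0.27, adjusted p = 5.978e-12). With each of the 12 libraries left out in turn, MCM7 and POLD1 passed every time, MCM3 and POLD3 4 times, and ORC6 and RFC3 3 times. With the offset for gene length MCM3 and RFC3 did not pass, nor did RFC3 and POLD3 with the replicate number as a block (adjusted p = 0.0155 and 0.0128). Calls were also lost with no filter on low counts (MCM3 and POLD3), with upper quartile scaling (POLD3) and with limma on log2(FPKM + 0.1) (RFC3). No explanation for these differences was tested.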

How the results depend on the processing

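For 107 single values of members, 1772 alternative values were computed, of which 1522 kept direction and call, 47 gained a call, 193 lost one and 10 turned direction. The last were RFC4 in WT cells (-0.013 with no filter on low counts, -0.06 with the offset for gene length, and -0.017 to 0.049 with a library left out), POLE (0.061) and TK1 (-0.12) in WT cells with that offset, and, in Atg7KO cells, FEN1 (0.03 with the offset), E2F1 (0.092 with it) and RRM2. With a library left out these 3 ranged from -0.27 to 0.132, from -0.108 to 0.045 and from -0.137 to 0.067, and the highest of each was without untreated replicate 1, where FEN1 passed as a rise (adjusted p = 0.00287). The POLE fall in WT cells had passed with all libraries and no offset. The one negative RFC4 value among these was without untreated WT replicate 2. Counts of members are given as higher and lower. The WT response gave 10 and 5 when all 12 libraries shared a fit, 2 and 0 with the 2-fold minimum, and 13 to 17 and 9 to 15 with a library left out. The Atg7KO response gave 6 lower with DESeq2, 10 lower with the shared fit or at an adjusted p under 0.05, 2 and 1 with the minimum, and 2 to 16 and 1 to 13 with a library left out. Untreated Atg7KO against WT cells gave 0 higher with at least 10 counts in every library, with limma on either pseudocount and with the minimum, 4 higher with the shared fit, 1 lower with DESeq2, with no filter, with the length offset, with the shared fit and at 0.05, and 0 to 10 and 0 to 5 with a library left out. Treated Atg7KO against WT cells gave 7 higher with the shared fit, 0 and 0 with the minimum, and 12 to 19 and 12 to 13 with a library left out. The interaction gave 2 and 8 with DESeq2, 0 higher with upper quartile scaling, 2 higher with at least 10 counts or with limma on log2(FPKM + 1), 8 lower with no filter, 3 and 3 with the length offset, 5 and 10 at 0.05, and 0 to 10 and 2 to 11 with a library left out. The cause was not tested, beyond the fewer libraries, the wider threshold or the shared spread that these settings bring by construction.

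Replicate numbers did not pair the libraries, since the correlations of same-numbered deviations from the group means lay between -0.0691 and 0.0976. With the replicate number as a block the counts were 16 and 12 for the WT response, 4 and 1 for the Atg7KO response, 0 and 0 for untreated cells, 19 and 12 for treated cells, and 0 and 4 for the interaction. With no filter on low counts the median of all genes shifted to 0.20 in WT cells. Depth limits the members with few reads, such as PRIM1 and POLA2, whose SEs were 0.113 in the WT comparison and 0.117 between the treated lines, against 0.0418 for MCM7 and 0.0322 for PCNA.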
